A study of Zea mays with 12 samples.

Results

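In kernels of maize (Zea mays), 54 of the 108342 gene models measured were high at 3 and 5 days after pollination (DAP) and low before and after that window in both of 2 reciprocal crosses. They were chosen by their normalised signal, which is counts scaled to a common library size with the authors' factors and is written RPM here. In each cross, the lower of the 3 and 5 DAP values plus 1 was divided by the highest of the 0, 7, 10 and 15 DAP values plus 1, and the log2 of this ratio is the score. A model was kept when the lower of its 2 cross scores was above 2, at most 150 models were to be taken, and 1 of any models with identical counts in all 12 libraries was kept (GRMZM5G882739 was dropped beside GRMZM2G044882). Because these values chose the members, the contrast of 3 and 5 DAP with the other ages is described and not tested. The study crossed the inbred lines B73 and Mo17 both ways. With the mother first, BxM is B73 pollinated by Mo17, and MxB is Mo17 pollinated by B73. The RNA of ages 0 (unpollinated), 3 and 5 DAP came from the entire kernel and that of 7, 10 and 15 DAP from dissected endosperm, with 1 deposited column per cross and age. The 0 DAP libraries therefore hold the mother's line alone, B73 under BxM and Mo17 under MxB. No library comes from a selfed kernel after pollination or from an unpollinated kernel older than 0 DAP.

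In maize, fertilisation of the egg starts the embryo and fertilisation of the central cell starts the endosperm, the tissue that later stores starch and protein. In the first days the endosperm nuclei divide without walls and then become cells, while the maternal nucellus around them is broken down and the maternal pericarp grows with the kernel. A whole kernel of this age holds all of these tissues. A dissected endosperm holds mainly the fertilised tissue.

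Few of the members carry a gene name. A RefSeq gene entry was found for 37 of the 54 members, and 17 had none. PER42 (GRMZM2G126261, also listed as PRX42) is named as a peroxidase of the plant type, haem enzymes that act with hydrogen peroxide and often work on the cell wall. NIP2-2 (GRMZM2G137108) belongs to the aquaporin family of membrane channels, and in rice a relative in the same subfamily carries silicic acid into roots. GRMZM2G383404 carries the synonym CGTb and GRMZM2G158394 the synonym kin1, with no role taken from either. The other members are given by identifier, with no function. Of the 54 models, 12 form 6 pairs whose counts, with the differences summed over the 12 libraries, differ by at most 10%, so that 48 separate signals remain: GRMZM2G004298 with GRMZM2G096100, GRMZM5G841770 with GRMZM2G009892, GRMZM2G451930 with GRMZM2G451975, AC234171.1_FG001 with GRMZM2G147373, GRMZM2G141456 with AC211652.4_FG003, and GRMZM2G358540 with GRMZM5G894808. The first pair shares 1 RefSeq entry. Reads counted under overlapping models cannot be assigned to one of them. Among the members with an entry, no other pair lay within 10 genes of each other in the gene order of RefSeq (build Zm-B73-REFERENCE-NAM-5.0).

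Total counts were 59378582 to 70930121 per library at 0 to 10 DAP, and 35401314 (BxM) and 39864984 (MxB) at 15 DAP. The fixed marker lists were read beside the members, since tissue and age change together between 5 and 7 DAP. The summed signal of the carpel and ovule genes zag1 and zag2, the 2 of 5 listed that were found, was 447.7 RPM in BxM and 410.8 RPM in MxB at 0 DAP, 523 and 429 RPM at 3 DAP, and 560 and 462 RPM at 5 DAP. It was 6.3 and 5.54 RPM at 7 DAP, 65.0 and 110.7 RPM at 10 DAP, and 1.13 and 1.43 RPM at 15 DAP. The signal of zag1 and zag2 was thus present at 0, 3 and 5 DAP, low at 7 DAP, higher again at 10 DAP and lowest at 15 DAP. Its drop after 5 DAP and its course from 7 to 15 DAP move with those of many members, while it was already high at 0 DAP. The 3 of 6 green tissue (pericarp) markers found summed to 17.4 to 33.6 RPM at 0 to 5 DAP. Their sum in BxM and MxB was 1.24 and 1.62 RPM at 7 DAP, 1.45 and 2.14 RPM at 10 DAP, and 3.49 and 3.08 RPM at 15 DAP. After 5 DAP this list was therefore highest at 15 DAP, unlike zag1 and zag2. Most of the sum at 15 DAP was cab-m1, with 2.83 RPM in BxM and 2.58 RPM in MxB. This gene ran against the list, with 0.0255 to 0.246 RPM at 0 to 5 DAP. At 15 DAP lhcb5 had 0.661 and 0.502 RPM in BxM and MxB, and ssu1 had 0 RPM in both. The 8 starchy endosperm markers, all found, summed to 24.3 to 113 RPM at 0 to 5 DAP and to 5718.6 to 93520.2 RPM later. At 0 DAP the list summed to 64.8 RPM in BxM and 58.0 RPM in MxB. Most of this was the model matched to pbf1, GRMZM2G146267, with 40.9 and 35.2 RPM. That model did not rise with the list, and stood at 10.3 to 53.5 RPM over the 12 libraries. Markers were matched to models by RefSeq synonym, and whether this model is pbf1 was not checked. The 5 transfer layer markers found of 8 summed to 17.2 and 32.8 RPM in BxM and MxB at 0 DAP, 276 and 258 RPM at 3 DAP and 339.6 and 431 RPM at 5 DAP, and to 10219.6 and 3669.7 RPM at 7 DAP. At 3 DAP nearly all of this sum was mn1, with 274 RPM in BxM and 250.3 RPM in MxB, and none of the other 4 exceeded 3.92 RPM. One of these, the model matched to mrp1 (GRMZM2G113203), went down. It had 7.24 and 4.15 RPM in BxM and MxB at 0 DAP and 0.121 and 0.0752 RPM at 7 DAP. Whether this model is mrp1 was not checked either. Embryo-surrounding markers (2 found of 3) went no higher than 1.37 RPM at 0 and 3 DAP and stood at 40.6 and 49.5 RPM at 5 DAP. Embryo markers (4 of 4) summed to at most 2.04 RPM in kernels of 0 to 5 DAP. In the endosperm libraries of BxM and MxB they summed to 33.8 and 66.5 RPM at 7 DAP, 398.7 and 201.6 RPM at 10 DAP, and 19.9 and 31.2 RPM at 15 DAP. Aleurone markers (3 of 4) summed to 108 to 203 RPM in kernels. With 181.6 RPM in BxM and 122.2 RPM in MxB at 0 DAP, their signal was not confined to pollinated kernels. Of the 6 listed pollen genes 5 were found, expb1 and expb9 had no counts in any library, and the sum was 0.102 to 1.46 RPM in kernels, so pollen markers were at or near 0 where the members were high. No marker is a member. The part of tissue makeup in the members' profile was not tested. In these bulk samples, fewer cells of a type and less RNA per cell cannot be told apart, and neither can pollination and the age of the kernel.

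Taken as a set, the members stood far above their own levels at other ages in both crosses. Over the 6 ages in ascending order, their median signal in BxM was 4.72, 83.1, 65.9, 1.59, 1.81 and 0.212 RPM. In MxB it was 4.02, 51.9, 74.3, 1.6, 2.76 and 0.502 RPM at the same ages. The ratio of 3 DAP to 0 DAP had a median of 20.5 in BxM (4.68 to 1302.7 over the 51 members with more than 3 counts at 0 DAP) and of 11.7 in MxB (4.89 to 2056 over 53 members). On the far side of the window, the ratio of 5 DAP to 7 DAP had a median of 75.5 in BxM (6.68 to 385 over 51 members) and 66.5 in MxB (7.91 to 1198 over 53 members). The 48 separate signals held 0.107% of all counts in BxM and 0.11% in MxB at 0 DAP, 1.49% and 1.56% at 3 DAP, and 1.19% and 1.75% at 5 DAP. In endosperm they held 0.0145% and 0.0219% at 7 DAP, 0.0213% and 0.0339% at 10 DAP, and 0.00388% and 0.00483% at 15 DAP. These are sums over models and not reads.

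**Figure D1:**
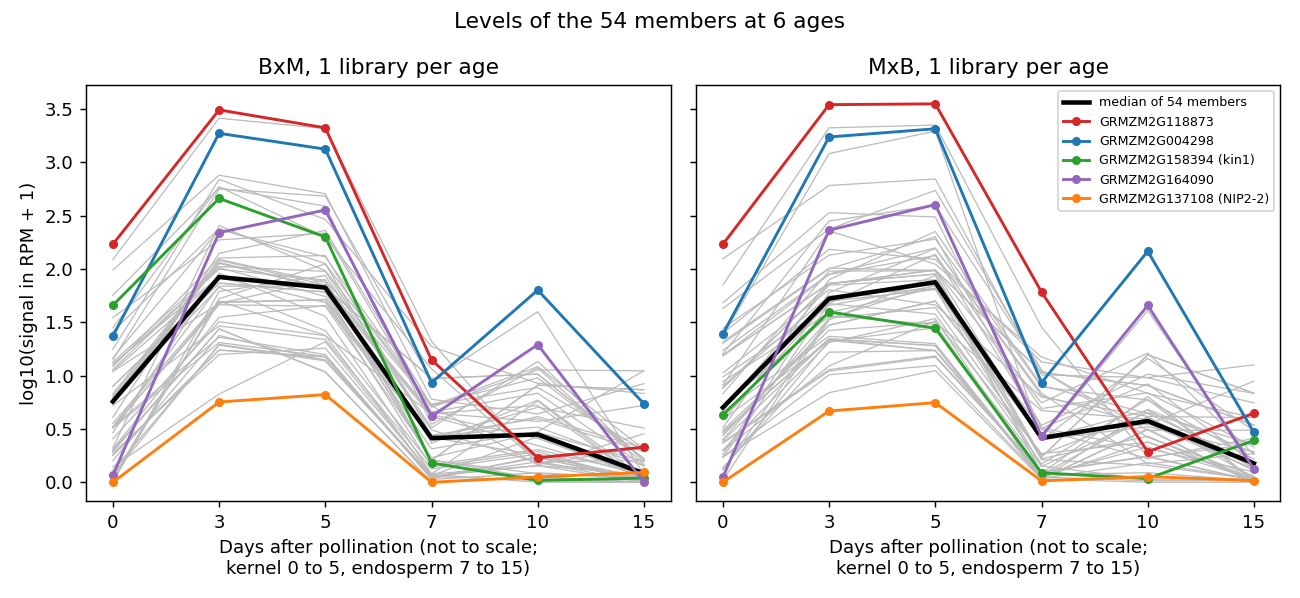
Signal of the 54 members at 6 ages, as log10(RPM + 1), with BxM on the left and MxB on the right and 1 library per point. Grey lines are single members, the black line is their median, and 5 members are coloured. The medians at 3 and 5 DAP lie between 51.9 and 83.1 RPM, and at most 4.72 RPM at the other ages.

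The members were raised in the window without being confined to it. Of the 54, 51 exceeded 1 RPM in at least 1 of the 8 libraries outside 3 and 5 DAP, and 23 exceeded 10 RPM in at least 1. At 0 DAP 38 stood above 1 RPM in both crosses. Counts were present in all 12 libraries for 38 members, and none had 3 counts or fewer in all 8 outside libraries. The 3 members that stayed at or under 1 RPM in all 8, singled out after their values were seen, were GRMZM2G388684, GRMZM2G130389 and NIP2-2. GRMZM2G388684 had 18.3 and 20.4 RPM in BxM and MxB at 3 DAP and 12.8 and 16.2 RPM at 5 DAP, with 0.0358 to 0.696 RPM elsewhere. For this reason the members are called genes high at 3 and 5 DAP below.

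The age that came closest to the window divided the members. In 20 members it was 0 DAP in both crosses. In 18 it was an endosperm age in both crosses, though not always the same one. In 16 it was 0 DAP in 1 cross and an endosperm age in the other. In BxM the highest outside value was the unpollinated one for 30 members, that of 7 DAP for 4, of 10 DAP for 19 and of 15 DAP for 1. In MxB the numbers were 26, 6, 22 and 0 for the same ages. At 0 DAP the signal was above that at 7 DAP in both crosses for 41 of 54 members, or 75.9%, against 42.6% of the 35006 models with at least 100 counts in a library, and below it in both crosses for 9, against 36.5% of the same models. The rule caps both ages but does not fix their order. It used the values of 0 and 7 DAP, so these shares may be partly set by the choice of members. The members counted include both models of each overlapping pair.

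Members already present before pollination include those with the highest counts. GRMZM2G121308, the member with the highest score (4.08), stood in BxM at 122, 2597, 2074, 20.1, 0.471 and 1.13 RPM over the 6 ages. In MxB it stood at 69.8, 2108, 2239, 27.5, 0.72 and 1.29 RPM. The peak lay at 3 DAP in BxM and at 5 DAP in MxB, and the crosses differed by less than 2-fold at every age. GRMZM2G118873 had 169.6 RPM at 0 DAP in BxM, then 3106, 2109, 13.1, 0.696 and 1.13 RPM. Its levels in MxB were 169, 3479, 3540.3, 59.8, 0.932 and 3.44 RPM. This model ranked 8 by count in both BxM libraries of 3 and 5 DAP, with 0.323% and 0.246% of all counts, and had the largest count of any model in the MxB libraries of those ages, with 0.441% and 0.415%. It ranked 462 in BxM and 423 in MxB at 0 DAP, and GRMZM2G121308 ranked 9 in BxM and 4 in MxB at both 3 and 5 DAP. Ranks are by counts, which are not divided by transcript length.

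**Figure D2:**
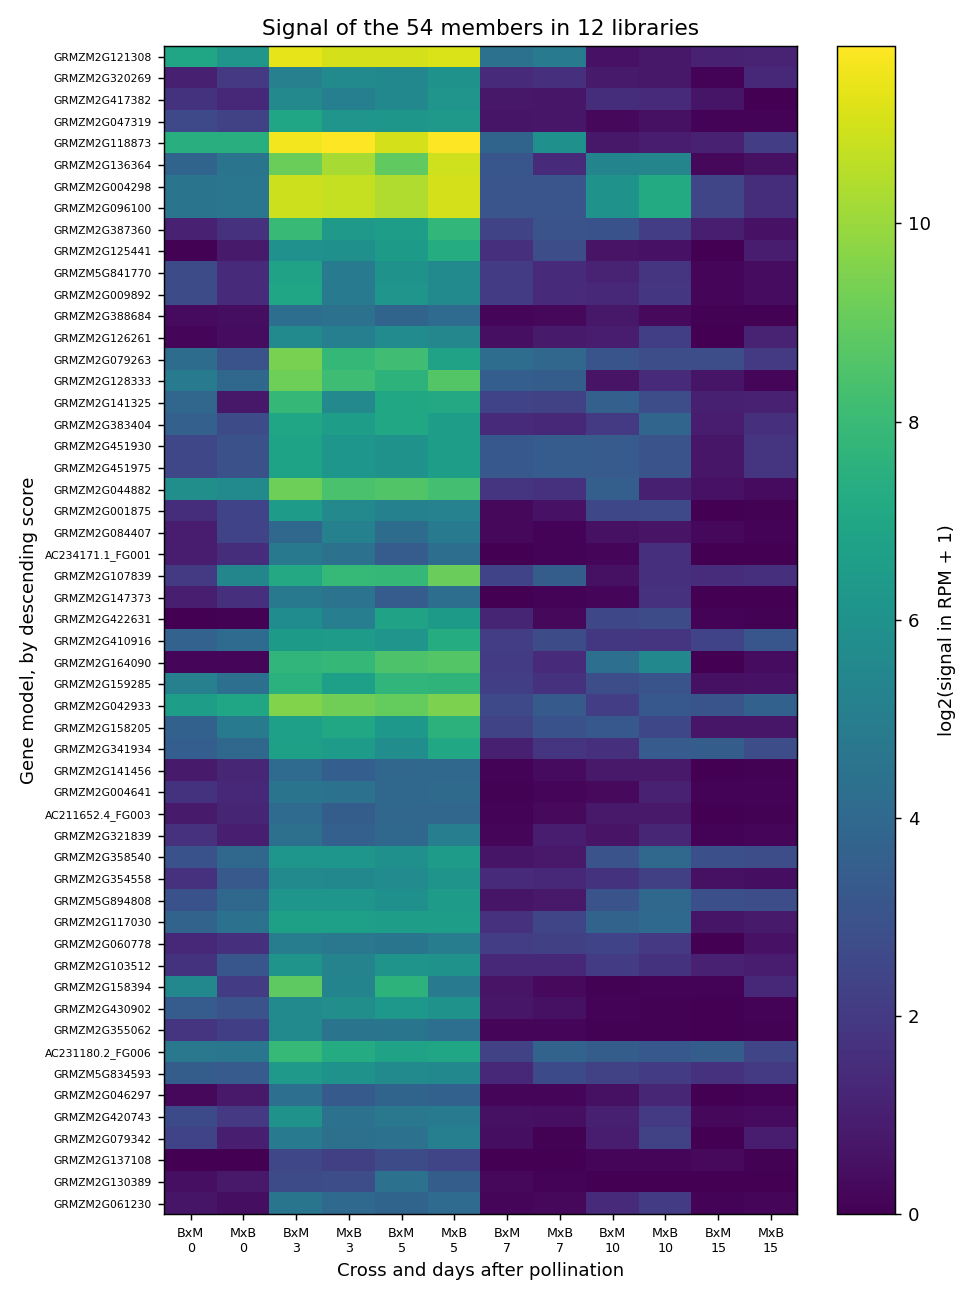
Signal of each member (rows, by descending score) in the 12 libraries (columns, by age, BxM beside MxB), as log2(RPM + 1) on the colour scale. The 4 columns of 3 and 5 DAP are brightest, with 2074 to 3540.3 RPM in GRMZM2G118873 and GRMZM2G121308, and the columns of 15 DAP are darkest.

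GRMZM2G042933 and GRMZM2G044882 followed the same course from a raised start. GRMZM2G042933 had 96.7, 758, 507, 5.01, 3.38 and 7.41 RPM in BxM at 0 to 15 DAP. It had 124, 606, 698, 9.16, 8.59 and 11.6 RPM in MxB. GRMZM2G044882 had 55.8, 577, 388, 2.49, 10.9 and 0.472 RPM in BxM. In MxB it had 47.1, 337, 307, 2.23, 1.06 and 0.251 RPM, so the value of 10.9 RPM at 10 DAP has no like in MxB. GRMZM2G128333 stood at 27.1, 591, 198, 10.6, 0.553 and 0.614 RPM in BxM and at 15, 281, 395, 10.2, 1.64 and 0.143 RPM in MxB. GRMZM2G047319 lay lower, with 5.02, 122, 73.6, 0.607, 0.205 and 0.0944 RPM in BxM and 3.87, 69.6, 78.4, 0.632, 0.442 and 0.0717 RPM in MxB. GRMZM2G159285 had 34, 186, 216, 3.57, 5.83 and 0.425 RPM in BxM and 19.1, 99.4, 199.8, 2.21, 7.38 and 0.502 RPM in MxB.

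A smaller number of members were low or nearly absent before pollination. GRMZM2G164090 stood in BxM at 0.168, 219, 357, 3.16, 18.5 and 0 RPM, and in MxB at 0.112, 230.4, 401, 1.7, 44.5 and 0.323 RPM. The 15 and 11 counts at 0 DAP stand against 13800 and 18632 counts at 3 DAP. GRMZM2G422631 had 1 and 4 counts at 0 DAP, and its signal at 3, 5, 7, 10 and 15 DAP was 51.6, 110.7, 1.32, 4.89 and 0.0944 RPM in BxM and 32.4, 86.1, 0.211, 5.38 and 0.0358 RPM in MxB. Both models had their second highest period at 10 DAP and not at 7 DAP. GRMZM2G125441 had 3 counts at 0 DAP in BxM and 80 in MxB, and its highest outside value was at 7 DAP, with 2.09 and 5.84 RPM against 60.6 and 59 RPM at 3 DAP and 85.8 and 155 RPM at 5 DAP. GRMZM2G387360 stood at 1.11, 255, 95.2, 4.32, 6.75 and 0.991 RPM in BxM and at 2.25, 78.4, 223, 7.09, 3.42 and 0.502 RPM in MxB.

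The 2 members that could be given a gene family here, from their gene names alone, belong to this group. PER42 stood in BxM at 0.112, 48.4, 50.4, 0.395, 0.941 and 0 RPM over the 6 ages. In MxB the peroxidase gene stood at 0.306, 33.6, 42.5, 0.812, 3.5 and 1.25 RPM. The aquaporin gene NIP2-2 had 0 counts in both crosses at 0 DAP, where 3 counts would be 0.0336 RPM in BxM and 0.0306 RPM in MxB. It had 294 and 296 counts in BxM and MxB at 3 DAP (4.66 and 3.66 RPM) and 442 and 345 at 5 DAP (5.65 and 4.58 RPM). In endosperm it had 0 and 2 counts at 7 DAP, 6 and 8 at 10 DAP, and 5 and 1 at 15 DAP. In each of the 4 libraries of 3 and 5 DAP its value was the lowest of the 54 members.

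A return at 10 DAP was seen in several members after a low value at 7 DAP. GRMZM2G004298 stood in BxM at 22.5, 1873, 1330.4, 7.59, 62.4 and 4.44 RPM. In MxB it stood at 23.6, 1730.2, 2067, 7.6, 146 and 1.94 RPM, so its 10 DAP value exceeded its 0 DAP value in both crosses. GRMZM2G136364 had 13.1, 562, 482, 7.94, 38.8 and 0.189 RPM in BxM and 22.5, 1209.6, 1964, 1.64, 39.9 and 0.466 RPM in MxB. GRMZM2G001875 had 1.92, 90.3, 35, 0.197, 4.79 and 0 RPM in BxM and 4.17, 46.3, 36.7, 0.481, 5.01 and 0.0358 RPM in MxB. Over the set, 10 DAP lay above 7 DAP in both crosses for 30 of 54 members, or 55.6%, against 36.0% of the 35006 models with at least 100 counts in a library, and below it in both crosses for 14. The carpel and ovule markers were also higher at 10 than at 7 DAP (values above), and their part in this was not tested. At 15 DAP the signal was below that at 10 DAP in both crosses for 40 members, or 74.1%, against 51.2% of the same models. The rule used the values of 7, 10 and 15 DAP, so these shares may be partly set by the choice of members. At 15 DAP 14 members in BxM and 4 in MxB had no counts, in the libraries with the lowest totals.

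Which of 3 and 5 DAP was higher is not set by the rule, and it was tested over all 12 libraries. No member passed. In edgeR's quasi-likelihood test with age and cross as terms, 0 of 54 members were called higher at 5 DAP and 0 lower (Benjamini-Hochberg adjusted p under 0.05), against 0.0129% and 0.0% of all 46342 models tested. An unadjusted p under 0.05 was seen in 1 member and in 4624 models. The median log2 fold change of 5 over 3 DAP was -0.11 in the members and 0.02 in all models, and it was positive in 22 of 54 members. This direction rests on single libraries, since without the BxM 3 DAP library the members' median was 0.42 with 45 positive, without the BxM 5 DAP library 0.02 with 28 positive, and without the MxB 3 DAP library -0.35 with 14 positive. DESeq2 called 1 member, GRMZM2G079263, as lower, against 1.46% of all models, and none as higher, against 2.01%. GRMZM2G079263 stood in BxM at 290.4 RPM at 5 DAP and 692 RPM at 3 DAP, and in MxB at 110.2 RPM at 5 DAP and 227 RPM at 3 DAP. It was lower at 5 DAP in both crosses, by a log2 of -1.17 (SE 0.346, edgeR adjusted p = 0.318; DESeq2 adjusted p = 0.0287). GRMZM2G422631 had a log2 fold change of 1.26 (SE 0.574, edgeR adjusted p = 0.516), with 110.7 RPM at 5 DAP against 51.6 RPM at 3 DAP in BxM and 86.1 RPM against 32.4 RPM in MxB. GRMZM2G130389 had one of 1.31 (SE 0.663, edgeR adjusted p = 0.573), with 19.8 RPM at 5 DAP against 5.72 RPM at 3 DAP in BxM and 10.2 RPM against 5.92 RPM in MxB. With 1 library per cross and age the 2 crosses stand in for replicates, and the p-values measure how unequally the crosses behave.

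The crosses disagreed on the direction in about as many members as they shared it. In BxM 40 members were highest at 3 DAP and 14 at 5 DAP, whereas in MxB 13 were highest at 3 DAP and 41 at 5 DAP. The level at 5 DAP was below that at 3 DAP in BxM and above it in MxB for 28 of 54 members, or 51.9%, against 18.1% of the models with at least 100 counts in a library. The opposite pattern was seen in 1 member, GRMZM2G084407, against 21.7% of those models. In 13 members 5 DAP was higher in both crosses and in 12 lower in both, against 28.7% and 28.3% of models. With 1 model per overlapping pair, 23 of 48 were lower in BxM and higher in MxB. Under other scalings the number was 33 of 54 with RLE factors, 33 with upper-quartile factors and 24 with library totals alone, against 23.3%, 23.2% and 12.8% of models. The median log2 ratio of 5 over 3 DAP in the members was -0.46 in BxM and 0.31 in MxB, and over all those models 0.02 in BxM and -0.01 in MxB. The pattern rests on single libraries, 1 for each cross at each age, so a difference between crosses cannot be told apart from a difference between individual samples, and it was not tested.

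**Figure D3:**
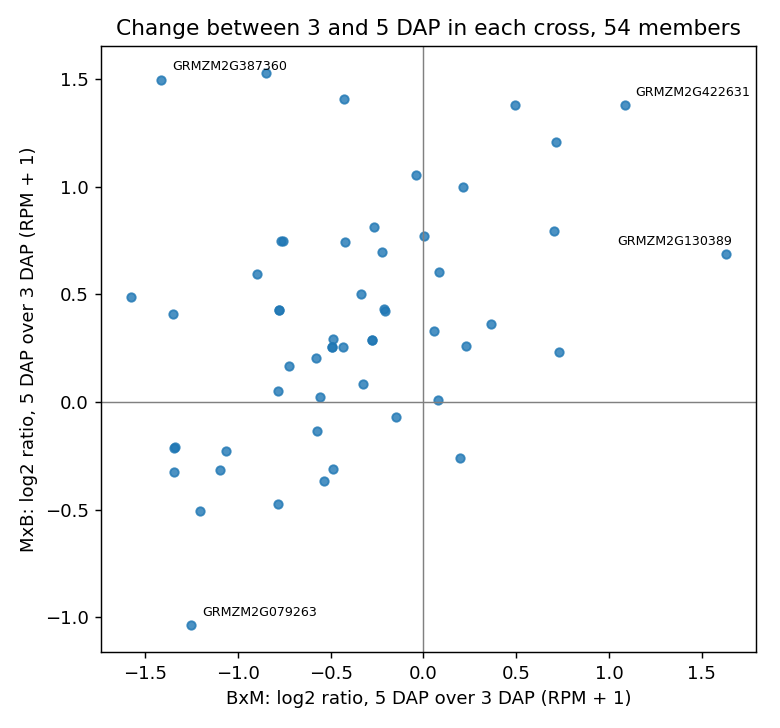
Change between 3 and 5 DAP in each of the 54 members, as the log2 ratio of 5 over 3 DAP (RPM + 1) in BxM on the x axis and MxB on the y axis, with 1 point per member. The upper left field, lower at 5 DAP in BxM and higher in MxB, holds 28 points, and the lower right field holds 1.

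Members with opposite directions show how the crosses parted. GRMZM2G141325 had 129 RPM at 5 DAP against 233 RPM at 3 DAP in BxM, and 136 RPM at 5 DAP against 46.6 RPM at 3 DAP in MxB. GRMZM2G420743 had 25.4 RPM at 5 DAP against 66.3 RPM at 3 DAP in BxM, and 27 RPM against 20.1 RPM in MxB. In both, the BxM and MxB levels were close at 5 DAP and apart at 3 DAP. In GRMZM2G321839 the crosses were apart at both ages, in opposite order, with 14.2 RPM in BxM and 31.7 RPM in MxB at 5 DAP and 19.4 and 11.3 RPM at 3 DAP.

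Whether the 2 crosses differed in 3 and 5 DAP kernels, which the rule does not fix either, was tested in those 4 libraries with age as a term. The 2 ages stood in for replicates, with 1 residual degree of freedom, so its p-values do not measure the spread between samples of a cross and age. A single member passed. GRMZM2G158394, which carries the synonym kin1, had 458 RPM at 3 DAP and 199 RPM at 5 DAP in BxM kernels, against 38.6 and 26.9 RPM in MxB kernels. It was higher in BxM by a log2 of 3.21 (SE 0.541, edgeR adjusted p = 0.00717) and was higher in BxM at both ages. The same direction held before pollination, with 44.7 RPM in BxM and 3.27 RPM in MxB, and at 7 DAP, with 0.516 and 0.226 RPM, while at 10 and 15 DAP its counts were 2 and 2 in BxM and 5 and 41 in MxB. At 0 DAP the kernel holds maternal tissue alone, B73 in BxM and Mo17 in MxB. The headers of the count columns carry the name B73, and how well reads of the Mo17 parent were counted was not tested, and mapping, genotype and direction of the cross cannot be told apart here. When all 12 libraries entered, with separate cross terms for the window and for other ages, the log2 fold change was 3.23 with an adjusted p of 0.218 by edgeR, and leaving out each library of that fit in turn gave 2.79 to 3.58 with adjusted p from 0.017 to 0.681. In that fit edgeR called the model without the BxM 0 DAP library (adjusted p = 0.017) or without the MxB 0 DAP library (adjusted p = 0.0188). It was not called without any of the other 10. Calls over all models moved likewise. With all 12 libraries 1 of 46342 models was called higher and 1 lower. Without the BxM 0 DAP library 1717 were called higher and 1710 lower, and without the MxB 0 DAP library 1796 and 1537.

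Calls between the crosses were few among the members, which the rule had already required to be high at 3 and 5 DAP in both crosses, so that their share is partly set by their choice. Of 54 members 1 was called higher in BxM and 0 lower, against 4.03% and 3.64% of the 40879 models tested (7.68% in either direction), and an unadjusted p under 0.05 was seen in 4 members and in 7817 models. DESeq2 called 2 higher in BxM, kin1 and GRMZM2G079263, and 1 lower, GRMZM2G136364, against 5.45% and 4.89% of models. GRMZM2G079263 had 692 RPM at 3 DAP and 290.4 RPM at 5 DAP in BxM against 227 and 110.2 RPM in MxB (log2 fold change 1.49, SE 0.509, edgeR adjusted p = 0.127; DESeq2 adjusted p = 0.0116). GRMZM2G136364 had 562 and 482 RPM in BxM against 1209.6 and 1964 RPM in MxB (log2 fold change -1.59, SE 0.586, edgeR adjusted p = 0.16; DESeq2 adjusted p = 0.0103). BxM was higher at both ages in GRMZM2G079263 and MxB at both in GRMZM2G136364, as in 29.6% and 27.2% of the 35006 models with at least 100 counts in a library. The median log2 fold change of BxM over MxB was 0.03 in the members and -0.07 in all models, and 29 of 54 members had a positive one. The members' median was -0.002 with upper-quartile factors. In the fit of all 12 libraries it was 0.05 with 30 positive, and it turned with the library left out: -0.34 with 14 positive without BxM 3 DAP, -0.25 with 17 positive without MxB 3 DAP, and 0.41 with 43 positive without BxM 5 DAP or without MxB 5 DAP.

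**Figure D4:**
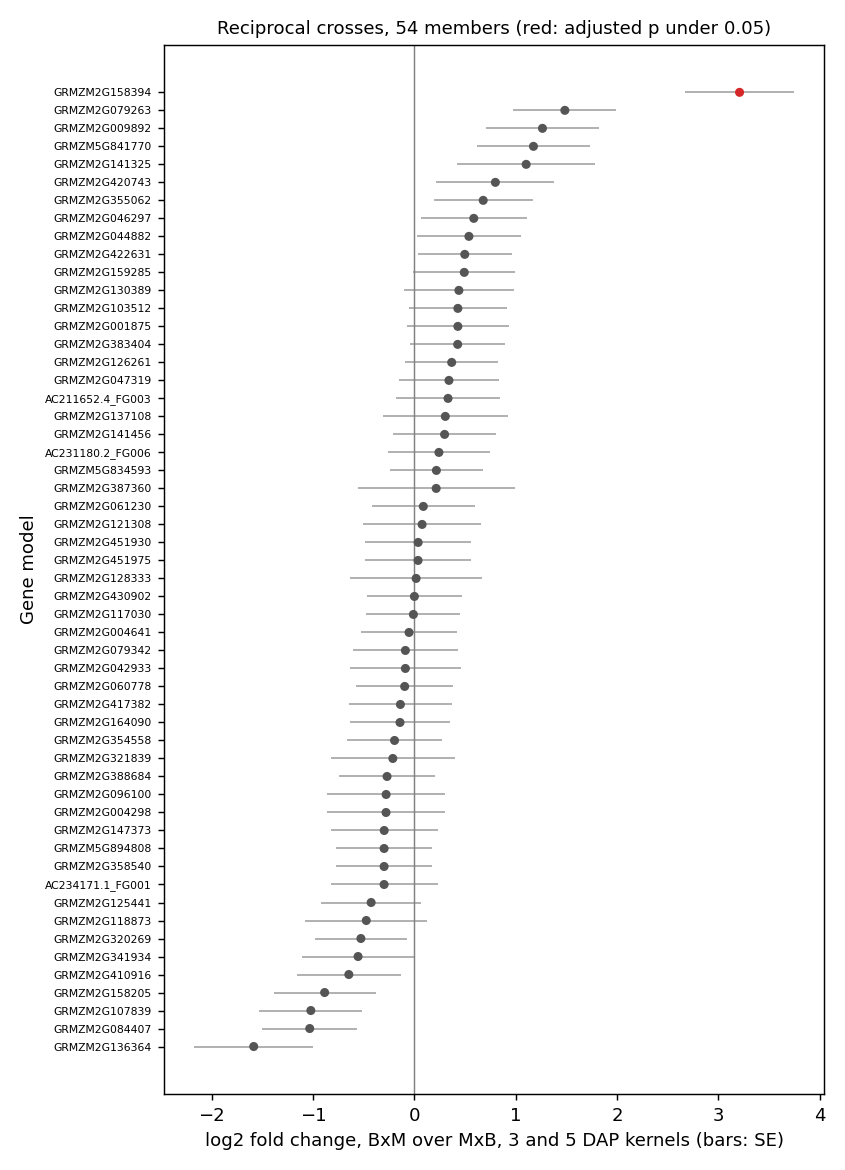
Log2 fold change of BxM over MxB in 3 and 5 DAP kernels for each of the 54 members (edgeR, 4 libraries), with bars of 1 SE. The point of GRMZM2G158394 at 3.21, in red, is the one past the adjusted p of 0.05, and GRMZM2G136364 at -1.59 is the lowest.

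By single ages, 15 members were higher in BxM at both 3 and 5 DAP, or 27.8%, against 29.6% of models with at least 100 counts in a library, and 9 were higher in MxB at both, against 27.2%. At 3 DAP alone BxM was higher in 43 members with the TMM factors, 46 with RLE factors, 43 with upper-quartile factors and 33 with library totals alone, and in 16639, 17849, 16914 and 13232 of the 35006 models. At 5 DAP alone it was higher in 17, 13, 13 and 16 members, and in 19035, 15944, 15901 and 18864 models. The difference between crosses was under 2-fold at both ages in 38 of 54 members. The share over all models was not computed. The rule required high levels in both crosses, so this number may be partly set by the choice of members. GRMZM2G107839 stood higher in MxB throughout, with 3.07 RPM in BxM and 41.7 RPM in MxB at 0 DAP, 139 and 235 RPM at 3 DAP, and 229 and 545 RPM at 5 DAP. GRMZM2G009892 stood higher in BxM through 7 DAP, with 5.75 RPM in BxM and 1.76 RPM in MxB at 0 DAP, 119.9 and 28.8 RPM at 3 DAP, 70 and 49.1 RPM at 5 DAP, and 3.31 and 1.7 RPM at 7 DAP. The order was turned at 10 DAP, with 1.58 and 2.62 RPM, and at 15 DAP, with 0.142 and 0.323 RPM.

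Several members kept the same direction from 3 to 5 DAP in both crosses, with less than 2-fold between the crosses at those 2 ages. The change could be close to none, as in GRMZM2G383404, with a log2 of 0.078 in BxM and 0.008 in MxB. GRMZM2G383404 had 126 and 94.6 RPM in BxM and MxB at 3 DAP and 133 and 95.2 RPM at 5 DAP, with 11.2 and 5.78 RPM at 0 DAP and 2.95 and 13.5 RPM at 10 DAP. GRMZM2G117030 had 104 and 101 RPM at 3 DAP and 94.2 and 96.1 RPM at 5 DAP, with 12.5 and 19.8 RPM at 0 DAP and 12.6 and 15.3 RPM at 10 DAP. GRMZM2G320269, with the second highest score (3.70), had 34.3 and 48.9 RPM at 3 DAP and 44.5 and 63.2 RPM at 5 DAP, and 0.0944 to 2.84 RPM elsewhere. GRMZM2G417382, with the third highest (3.67), is not one of them, since its order turned: it had 45.2 and 33.3 RPM at 3 DAP, 43.9 and 70.1 RPM at 5 DAP, and 0 to 2.3 RPM elsewhere.

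The score has no gap at its threshold. The lowest members were NIP2-2 at 2.04, GRMZM2G130389 at 2.01 and GRMZM2G061230 at 2.00. Just outside were GRMZM5G861291 at 1.9995, whose values are nearly those of GRMZM2G061230, GRMZM2G154958 at 1.99 and GRMZM2G033746 at 1.97. Scores ranged from 2.00 to 4.08 with a median of 2.38. In BxM 180 models passed the score of 2 and in MxB 132, of which 125 passed in BxM alone and 77 in MxB alone. With 0 DAP as the sole outside age 215 models passed in both crosses, and with the endosperm ages alone 967 did.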

How the data were processed

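RNA sequencing of 12 libraries (1 per cross and age) was used. The authors deposited raw read counts per gene model and a normalised signal, which per the note deposited with the tables is RPM scaled with edgeR normalisation factors. Bowtie and bedtools are named in the submitters' processing notes; versions, build and strand handling were found in no label or header, so overlapping or antisense models may share reads. Per the labels, plant material was collected in 3 replicates, but how these entered a library is not stated, so p-values do not measure the spread between plants. Members were chosen from the deposited signal. Counts were tested with edgeR 4.0.16 (R 4.3.3; TMM, filterByExpr, quasi-likelihood test, two-sided, Benjamini-Hochberg adjustment over all models, threshold 0.05), with DESeq2 1.42.0, RLE and upper-quartile factors, no filter, other libraries and each library left out as alternatives. The 2 tests took 12 libraries (5 over 3 DAP, terms age and cross) and 4 libraries (BxM over MxB). All 54 members passed the filter. Both tests were tested on simulated data, where fold sizes were recovered but most small differences were not called, so a member that was not called may still differ. Shares called by a test are over the models tested, and shares by the order of levels over the models with at least 100 counts in a library. The members and lists were chosen with earlier results of these data known. Named genes are the 12 members with the highest score, the 12 with the highest mean at 3 and 5 DAP, those past a test and those at the threshold; other members named were chosen after their values were seen. Gene names come from RefSeq (Zm-B73-REFERENCE-NAM-5.0), in which 18214 models matched 1 entry; functional classes, promoters and proteins were not analysed here.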

Additional observations from a re-analysis of the deposited data

Results flagged for a closer look

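GRMZM2G387360 was the one member whose level moved at least 2-fold in opposite directions between 3 and 5 DAP in the crosses. Its log2 ratio of 5 over 3 DAP, on values plus 1 RPM, was -1.41 in BxM and 1.499 in MxB, with 1 library behind each level. The difference between the crosses was not tested.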

How the results depend on the processing

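No pairing by replicate number was possible, because each cross and age has 1 library, all numbered 1. The fits carry cross or age as a term instead. They thus compare 3 and 5 DAP within a cross, and the crosses within an age. The number of members depended on the pseudocount of the score: 130 models passed with 0.1 RPM and 28 with 5 RPM, against 54 with 1 RPM. With the outside ages reduced to 0 DAP alone, or to 7, 10 and 15 DAP, the cap of 150 was reached, and both alternatives were chosen after seeing the data. Leaving out 15 DAP gave 58 models, and CPM computed here gave 54. In the test of 5 over 3 DAP, DESeq2 called 1 member lower, and 0 were called in either direction under RLE, upper quartile, no filter, the 4 kernel libraries alone or any library left out (0 to 0). Without the MxB 3 DAP library the models called higher numbered 1131, against 6, and the cause was not tested. In the test of BxM over MxB, RLE, upper quartile and no filter each called 1 member higher and 0 lower. Over all models they called 1623, 1625 and 2536 higher and 1451, 1509 and 2538 lower. DESeq2 called 2 members higher and 1 lower, against 2229 and 1999 of all models. The fit of all 12 libraries called 0 members higher and 0 lower, against 1 and 1 of all models. Leaving out libraries from that fit gave 0 to 2 members higher and 0 to 0 lower. The 2 were called without either 0 DAP library, where 1717 (BxM left out) and 1796 (MxB left out) of all models were called higher. With these designs the p-values rest on 1 library per cross and age, and 3 counts correspond to 0.0306 to 0.142 RPM.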
